A study of Homo sapiens with 45 samples.

Results

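SUDHL6, a human diffuse large B-cell lymphoma line of germinal-centre type, was silenced with siRNA pools against transcription regulators, and whole-transcriptome BeadArrays were hybridised with RNA taken 20 h after nucleofection. The comparison described here set the 3 arrays of cells given pools against both HMGA1 and ATF5 (siHMGA1+siATF5, called the pair) against the 3 arrays of cells given the ATF5 pool alone (siATF5). These are 6 of the 45 arrays of the study, and they were chosen by their titles. All groups were the same cell line in the same medium, nucleofected with 80 pmol of pool and harvested at the same time. The labels do not say how the pools were dosed in the pair. Control arrays did not enter the difference between the pair and siATF5. They lent their spread to the fit and were compared with both groups in separate contrasts. The non-target pool given with itself (siNT4+siNT4, 2 arrays, replicates 2 and 3) is the control of the pair, and the non-target pool given singly (siNT4, 4 arrays) is the control of siATF5. No label says that replicates came from separate cultures. The p-values below therefore measure the spread between arrays, pooled over all groups fitted, which may be technical. Values are the deposited log2 values, a difference is a difference of log2 values, and a gene was called where its adjusted p in limma (Benjamini-Hochberg over 8625 genes) was under 0.05. In a bulk sample, fewer cells of a kind and less RNA per cell cannot be told apart.

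HMGA1 is an AT-hook protein of the high mobility group that binds the minor groove of AT-rich DNA and changes the access of other factors to it. ATF5 is a basic leucine zipper factor of the ATF4 family, known from responses to amino acid shortage and mitochondrial stress. TFDP1 encodes DP1, the partner with which E2F factors bind DNA at the promoters of genes for DNA replication and entry into S phase. It was a silencing target elsewhere in the study, but a target of neither pool compared here.

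In the pair, HMGA1 was low and TFDP1 was at the level of the controls. In siATF5 alone, HMGA1 was near the control level and TFDP1 was lower than in any other group of the 44 arrays analysed. A set of E2F-regulated replication genes, among them MCM4, UHRF1, TYMS and RRM2, was higher in the pair than in siATF5 and lay near the controls. ATF5 itself did not differ past the threshold.

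HMGA1 stood at 9.87, 9.94 and 9.83 in the 3 pair arrays, against 11.00, 11.25 and 11.29 in the 3 siATF5 arrays. All pair arrays lay more than 1 log2 below every siATF5 array, and the difference was -1.30 (SE 0.13, adjusted p in limma 4.41e-09). The siNT4+siNT4 arrays had 11.25 and 11.28, and the pair differed from them by -1.39 (adjusted p in limma 3.57e-08), so the target of the second pool was lower in the pair. The arrays of siHMGA1 alone ranged over 9.73 to 10.16, which takes in the 3 pair arrays. The other HMGA1 probes were not above background.

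ATF5, the target both groups shared, stood at 10.37, 10.44 and 10.28 in the pair, against 10.10, 10.06 and 10.21 in siATF5. The 2 sets of arrays did not overlap, but the difference of 0.24 (SE 0.15) was not past the threshold (adjusted p in limma 0.254). Against their own controls the groups read differently. In siATF5, ATF5 was lower than in siNT4 (10.93, 10.77, 10.68 and 10.87), with a difference of -0.69 (adjusted p in limma 0.00284). In the pair it overlapped the siNT4+siNT4 arrays, which had 10.63 and 10.29, with 1 pair array just below both, and the difference was -0.10 (adjusted p in limma 0.999). A fall of the ATF5 transcript in the pair was therefore not detected against its own control.

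TFDP1 stood at 11.50, 11.40 and 11.34 in the pair, against 9.30, 9.52 and 9.59 in siATF5. The difference of 1.94 (SE 0.11, adjusted p in limma 1.49e-17) exceeded that of any other gene named here, and a second TFDP1 probe gave 1.84. The siNT4+siNT4 arrays, with 11.46 and 11.36, lay within the range of the pair. The siATF5 arrays lay below the arrays labelled siTFDP1 (10.18 to 10.35), in which TFDP1 is the target. The 1 usable array of siTFDP1+siATF5 had 10.65. The low TFDP1 of the arrays labelled siATF5 was thus absent from all 3 arrays of the pair, which by label had received the same pool.

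**Figure D1:**
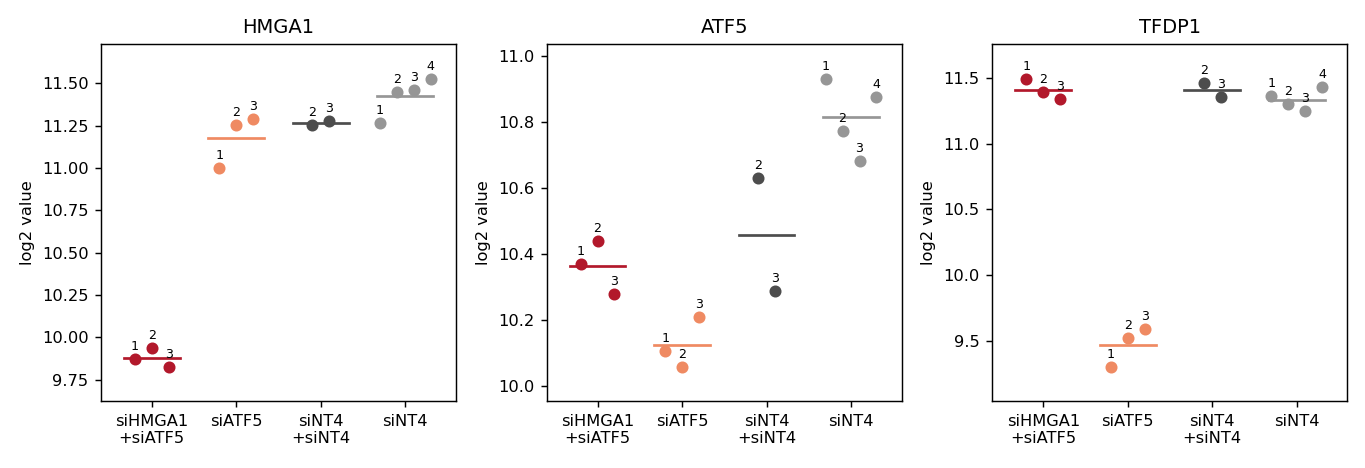
Log2 values of HMGA1, ATF5 and TFDP1 (vertical axes) on each array of 4 groups, with the replicate number above each point and a line at the group mean. HMGA1 is low in siHMGA1+siATF5 only, TFDP1 is low in siATF5 only, and the ATF5 values of the pair lie between those of siATF5 and siNT4.

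Before the wider comparison, the arrays themselves differed in ways that touch it. Probes above background made up 25.4%, 25.4% and 25.1% of all probes in the pair, against 29.4%, 30.6% and 25.4% in siATF5. The siNT4+siNT4 arrays had 25.6% and 25.2%. Replicates 1 and 2 of siATF5 thus stood apart, with the highest shares of the 44 arrays analysed, and they correlated at 0.971 to 0.984 with the 10 other arrays of the 4 groups, while those 10 correlated at 0.987 to 0.996 with each other. Only siATF5 replicate 3 resembled the rest. The deposited records were cut, in their order, into runs of the chip sizes of a second deposited table. No label ties an array to a chip, so these runs are an assumption. By that cut, siATF5 replicates 1 and 2 are in the first run and pair replicates 2 and 3 in the third. The second run holds siATF5 replicate 3 and pair replicate 1. Run and group therefore overlap in the second run alone. There, the difference was -1.42 for HMGA1 and 1.90 for TFDP1. The list medians and the differences of the main genes below are given also with siATF5 replicate 3 as the only siATF5 array, an alternative chosen after the data were seen, which assumes that this array varies like those of the other groups.

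A probe for 18S ribosomal RNA (RNA18SN5) moved with the groups as well. It read 9.91, 10.39 and 10.19 in the pair, against 11.06, 11.14 and 11.18 in siATF5, a difference of -0.96 (adjusted p in limma 0.000256). Ribosomal RNA makes up most of a total RNA sample and is not the material that oligo(dT) priming is meant to copy. The siNT4+siNT4 arrays had 11.01 and 10.67, and across the study this probe also read as low as 10.01 in siNT4 controls of a second set of arrays. A 28S probe (RNA28SN5) read 11.89, 12.32 and 11.99 in the pair, against 12.90, 12.61 and 12.69 in siATF5, while a second 28S probe differed by only -0.02. The part of the ribosomal signal, the background share and the run in the other results was not tested, beyond the alternatives given beside them.

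**Figure D2:**
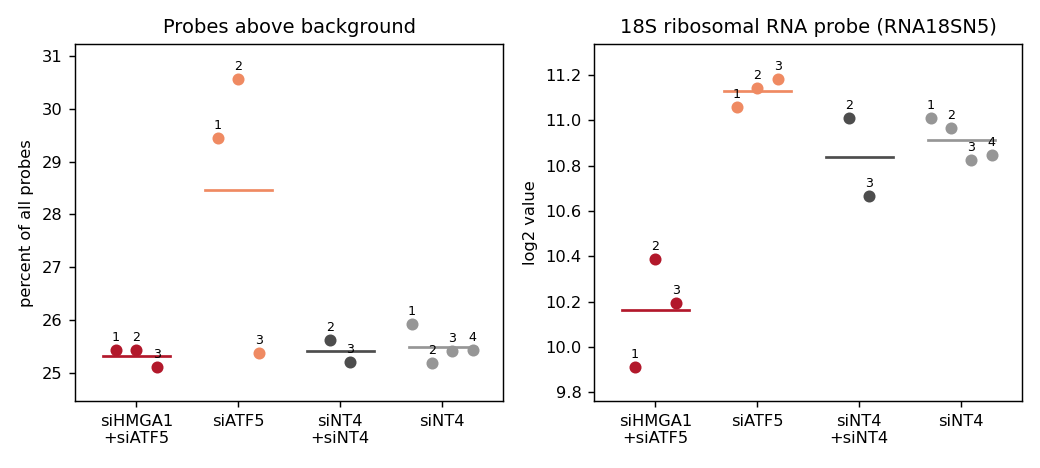
Left, percent of all probes above background on each array (vertical axis); right, log2 value of the 18S ribosomal RNA probe. Points are arrays with their replicate numbers and lines are group means; siATF5 replicates 1 and 2 have the highest shares (29.4% and 30.6%), and all 3 siHMGA1+siATF5 arrays have lower 18S values than the other 9 arrays.

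Across the transcriptome, 575 genes (6.67% of 8625) were called higher and 587 (6.81%) lower in the pair than in siATF5, together 1162 (13.5%). Their differences were small: only 4 exceeded 1 log2 in size, namely TFDP1, HMGA1, TP53BP2 and RTEL1. The arrays of the groups did not overlap in 2441 genes (28.3%), and in 1211 (14%) all pair arrays lay above all siATF5 arrays. The count rested on the siATF5 arrays that stood apart. It was 227 without siATF5 replicate 1, 71 without siATF5 replicate 2 and 2498 without siATF5 replicate 3. It was 341 without pair replicate 2 and 348 without pair replicate 3. When siATF5 replicate 3 was the only siATF5 array, 2 genes were called (0.0232%), HMGA1 and TFDP1. The same 2 were called when the share of probes above background was a covariate. When the siTFDP1+siATF5 array left out of all fits for its low correlation was put back, 8 genes were called, and with the run of records as a term 98 genes were. HMGA1 and TFDP1 were called in all 7 fits compared. Of the 1162 genes, 1099 (94.6%) kept the sign of their difference with siATF5 replicate 3 alone, and the median size of the difference was then 0.21, against 0.43 with all arrays.

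The replication genes had nearly the same list median with all siATF5 arrays and with replicate 3 alone, although the called members had smaller differences against replicate 3 and none of them was called there. E2F factors bound to a DP partner activate these genes at the passage of G1 into S phase. Of 46 listed genes 36 were measured, and 30 of these were higher in the pair, where 51.9% of all genes were. There were 8 genes called higher (6.67% of all genes were) and 0 called lower (6.81% of all genes), and in 14 genes all pair arrays lay above all siATF5 arrays (14% of all genes). The median difference was 0.145, against 0.012 over all genes tested. Against siATF5 replicate 3 alone, 32 of the 36 were higher, where 50.3% of all genes were, and the median was 0.147.

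The shift was alike in every array. Relative to the siNT4 mean, the median of the 36 genes was -0.02, -0.07 and -0.06 in the 3 pair arrays, against -0.22, -0.25 and -0.24 in the 3 siATF5 arrays. In the siNT4+siNT4 arrays it was -0.07 and -0.06, so the pair sat with its own controls. In the second run alone, where pair replicate 1 faces siATF5 replicate 3, 30 of 36 genes were higher and the median was 0.20.

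MCM4, a subunit of the replicative helicase, showed 11.10, 10.98 and 11.11 in the pair, against 10.24, 9.94 and 10.40 in siATF5. The arrays did not overlap, and the difference was 0.87 (adjusted p in limma 0.000147). It was 0.66 with siATF5 replicate 3 alone. The siNT4+siNT4 arrays had 10.63 and 10.88, below the pair, and a second, dimmer MCM4 probe gave a difference of 0.33.

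UHRF1, which brings DNA methyltransferase 1 to newly copied DNA, showed 10.34, 10.39 and 10.24 in the pair, against 9.54, 9.45 and 9.77 in siATF5. TYMS, thymidylate synthase, showed 10.41, 10.71 and 10.33 in the pair, against 9.73, 9.70 and 9.88 in siATF5. RRM2, the small subunit of ribonucleotide reductase, showed 7.80, 7.60 and 7.67 in the pair, against 6.91, 6.84 and 7.16 in siATF5. In none of these did an array of one group reach the other group. The differences were 0.74 for UHRF1 (adjusted p in limma 0.000163), 0.72 for TYMS (adjusted p 0.000654) and 0.72 for RRM2 (adjusted p 0.000654). Against siATF5 replicate 3 alone they were 0.55 for UHRF1, 0.61 for TYMS and 0.53 for RRM2, none past the threshold in that fit. The lowest siATF5 values of RRM2 lie near the array median of about 6.97, where differences may be compressed.

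The other called members had smaller or less even differences. CCNE1, the cyclin that activates CDK2 in late G1, showed 7.85, 7.65 and 7.83 in the pair, against 6.87, 6.89 and 7.57 in siATF5. Its difference of 0.67 (adjusted p in limma 0.00359) was 0.21 with siATF5 replicate 3 alone, and a second CCNE1 probe, not above background, gave -0.38. SLBP, which binds the stem-loop of histone mRNAs, differed by 0.51, MCM10, a replication initiation factor, by 0.36 and PCNA, the sliding clamp of DNA polymerases, by 0.29. These were 0.25, 0.24 and 0.21 with siATF5 replicate 3 alone. E2F2 (0.29, adjusted p 0.053), CDC45 (0.25, adjusted p 0.061) and CDT1 (0.23, adjusted p 0.089) were not past the threshold.

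The promoters of TFDP1 and of the called replication genes were searched for 8-base E2F-type motifs (TTTCCCGC, TTTCGCGC, TTTGCCGC or TTTGGCGC, either strand), since DP1 and E2F bind such sites together. The RefSeq windows (GRCh38.p14) run over 250 bases before and 50 after each start. TFDP1 and 3 of the 7 called list members with a window (UHRF1, TYMS and PCNA) held a match, and RRM2, CCNE1, SLBP and MCM10 held none. Such a motif was present in at least 1 window of 16 of 33 measured list genes with a window (48.5%), of 3 of 36 G2/M genes (8.33%) and of 7.11% of all tested genes. The 150 bases before the start are printed for the 4 genes with a match, with the matched letters in capitals, so that the place of the motif can be seen.
TFDP1 (chr13:113584603-113584752, plus strand): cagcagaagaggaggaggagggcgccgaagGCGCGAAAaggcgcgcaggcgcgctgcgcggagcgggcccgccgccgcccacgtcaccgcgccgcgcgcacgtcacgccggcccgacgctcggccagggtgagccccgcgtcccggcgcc
UHRF1, the first of 3 starts (chr19:4909351-4909500, plus strand): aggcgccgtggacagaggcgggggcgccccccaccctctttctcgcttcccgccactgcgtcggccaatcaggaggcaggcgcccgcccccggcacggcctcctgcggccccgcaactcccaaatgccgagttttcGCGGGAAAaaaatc
TYMS (chr18:657503-657652, plus strand): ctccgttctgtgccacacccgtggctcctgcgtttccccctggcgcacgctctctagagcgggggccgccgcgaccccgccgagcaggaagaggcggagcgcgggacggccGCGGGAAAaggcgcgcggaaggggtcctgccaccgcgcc
PCNA, the first of 2 starts (chr20:5126623-5126772, minus strand): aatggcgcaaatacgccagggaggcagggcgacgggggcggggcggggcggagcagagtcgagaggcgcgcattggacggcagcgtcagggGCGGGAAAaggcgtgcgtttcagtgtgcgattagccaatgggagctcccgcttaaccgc
The motif began 120 bases before the start in TFDP1, 14 in UHRF1, 39 in TYMS and 59 in PCNA. A match describes these letters and is not evidence of binding.

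Mitotic genes showed a different picture. Of 44 listed G2/M genes 43 were measured, 11 were called higher in the pair (6.67% of all genes) and 1 lower (6.81% of all genes), and 30 had a positive difference (51.9% of all genes). The median was 0.161 with all arrays but 0.036 with siATF5 replicate 3 alone, where 24 of 43 were positive. Relative to the siNT4 mean, the list median was -0.06, -0.10 and -0.04 in the pair, against -0.29, -0.27 and -0.10 in siATF5. In the siNT4+siNT4 arrays it was 0.01 and -0.01. The low values were thus those of siATF5 replicates 1 and 2, the arrays that stood apart. The shift remained with the run of records as a term, where the median was 0.171 and 36 of 43 were positive (4607 of all 8625 genes). In the second run alone the median was 0.074, and 27 of 43 were positive (4431 of all 8625 genes). By sequence these genes are marked by CCAAT, the motif of NF-Y, which was present on either strand in the promoter windows of 29 of 36 genes (80.6%), against 17 of 33 replication genes (51.5%) and 44.5% of all tested genes.

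Among the mitotic genes, KIF11 encodes the motor that drives spindle poles apart. It showed 10.20, 10.29 and 10.44 in the pair, against 9.59, 9.83 and 9.68 in siATF5. The difference was 0.61 (adjusted p in limma 0.00443) and 0.63 with siATF5 replicate 3 alone, where it was not called (adjusted p in limma 0.787). CDK1, the kinase that drives entry into mitosis, differed by 0.51 and by 0.25 with replicate 3 alone, and BUB1, a checkpoint kinase, by 0.42 and 0.25. NUF2, a kinetochore protein, differed by 0.43 and 0.23, and KIF14, a kinesin of cytokinesis, by 0.45 and 0.36. The exception in direction was CDC25C, a phosphatase that activates CDK1, which was lower in the pair (difference -0.49, adjusted p 0.026, and -0.49 with replicate 3 alone). FOXM1, a factor that activates many of these genes and a silencing target elsewhere in the study, had 8.51, 8.40 and 8.58 in the pair and 8.48, 8.64 and 8.37 in siATF5, with no difference past the threshold (adjusted p 1).

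**Figure D3:**
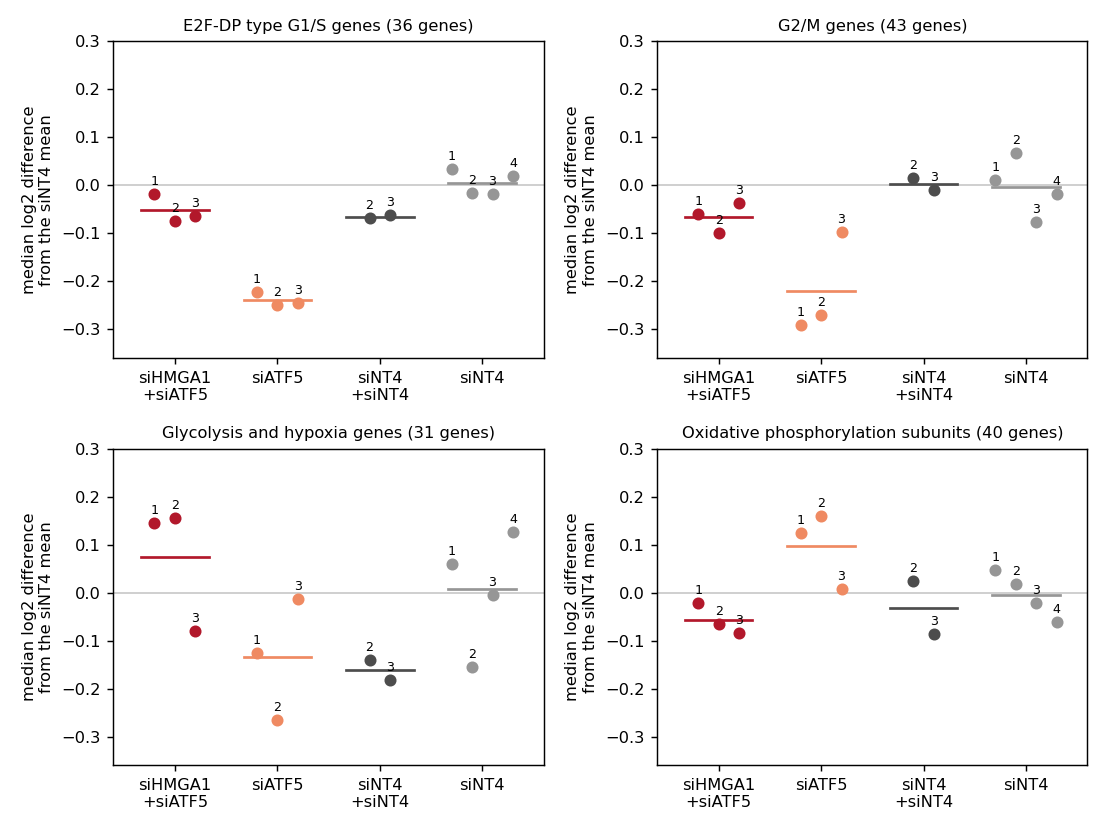
Median log2 difference of each gene list from its siNT4 mean on each array (vertical axes); points are arrays with replicate numbers and lines are group means. The replication genes are near -0.24 on all 3 siATF5 arrays, while the mitotic and oxidative phosphorylation lists separate siATF5 replicates 1 and 2, and not replicate 3, from the rest.

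The metabolic lists had medians somewhat smaller in size than the replication and mitotic lists, though single members differed as much as the named mitotic genes. Of 31 glycolysis and hypoxia genes 8 were called higher (6.67% of all genes) and 0 lower (6.81% of all genes), with a median difference of 0.125, and 0.067 with siATF5 replicate 3 alone. PFKFB4, which makes the activator of phosphofructokinase, differed by 0.70, HK2, hexokinase 2, by 0.55, PDK1, the kinase that shuts pyruvate dehydrogenase, by 0.54 and SLC2A1, the glucose transporter GLUT1, by 0.40. Against siATF5 replicate 3 alone these were 0.36, 0.34, 0.26 and 0.31. The list varied within groups, however. Relative to the siNT4 mean its median was 0.15, 0.15 and -0.08 in the pair, against -0.13, -0.27 and -0.01 in siATF5. The siNT4+siNT4 arrays, at -0.14 and -0.18, lay within the range of siATF5, and 30 of the 31 genes were higher in the pair than in that control (where 47.3% of all genes were higher), with a median of 0.249 and 0 genes called.

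Of 17 measured genes of cholesterol synthesis and its control, 5 were called higher (HMGCS1, INSIG1, MVK, IDI1 and LSS; 6.67% of all genes) and 0 lower (6.81% of all genes). HMGCS1, which makes HMG-CoA, showed 11.89, 12.20 and 11.76 in the pair, against 11.18, 11.18 and 11.60 in siATF5 (difference 0.63, adjusted p in limma 0.00476, and 0.34 with replicate 3 alone). INSIG1, which holds the SREBP cleavage complex in the endoplasmic reticulum, differed by 0.52, and by 0.22 with replicate 3 alone. The 40 measured subunits of oxidative phosphorylation had a negative median. There were 4 called lower, namely NDUFS7 of complex I, COX8A and COX4I1 of complex IV and CYC1 of complex III, a share near the 6.81% of all genes, and 0 higher, while 7 of 40 had a positive difference (51.9% of all genes). Their median of -0.138 was -0.049 with siATF5 replicate 3 alone. NDUFS7 showed 10.02, 10.17 and 9.99 in the pair, against 10.85, 10.85 and 10.56 in siATF5, a difference of -0.70, and -0.50 with replicate 3 alone.

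The amino acid response, to which ATF5 belongs, held called genes of both directions. Of 34 measured genes 6 were called higher (6.67% of all genes) and 2 lower, a share near the 6.81% of all genes. The higher ones were the aminoacyl-tRNA synthetases IARS1 (0.43), TARS1 (0.41), LARS1 (0.44) and YARS1 (0.31), the mitochondrial folate enzyme MTHFD2 (0.36) and the mTORC1 inhibitor DDIT4 (0.50). Against siATF5 replicate 3 alone these 6 differed by 0.13 (LARS1 and MTHFD2) to 0.34 (DDIT4). The lower ones were the stress factors ATF3 and DDIT3. ATF3 showed 7.40, 7.22 and 7.24 in the pair, against 7.79, 8.0 and 7.5 in siATF5, a difference of -0.47 that was -0.21 with siATF5 replicate 3 alone. DDIT3 (CHOP) differed by -0.39, and by -0.23 with replicate 3 alone. These genes thus differed in opposite directions within 1 list, and the list median was 0.087, or 0.063 with replicate 3 alone.

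Among chromatin proteins of the high mobility group, 11 were measured. HMGA1, the target of the second pool, was the 1 called lower (6.81% of all genes), and 3 were called higher (6.67% of all genes). The higher ones were HMGB1 (0.59), HMGB2 (0.54) and HMGB3 (0.44), which bend DNA without sequence preference. HMGB1 showed 9.68, 10.09 and 10.00 in the pair, against 8.79, 9.42 and 9.80 in siATF5, with the low value in siATF5 replicate 1. Against siATF5 replicate 3 alone the HMGB1 difference was 0.13, that of HMGB2 0.31 and that of HMGB3 0.17.

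Genes that mark the germinal-centre B cell and its survival differed one by one. ELF1, an ETS factor of lymphocytes, showed 11.16, 11.18 and 11.07 in the pair, against 10.38, 10.41 and 10.62 in siATF5 (difference 0.67, adjusted p in limma 0.00109, and 0.52 with replicate 3 alone). KLHL6, LMO2 and MYBL1 were also called higher, by 0.44, 0.36 and 0.49, and VPREB3 was called lower, with a difference of -0.45. Against siATF5 replicate 3 alone these were 0.26, 0.25, 0.34 and -0.19. Of the 28 measured genes, 4 were called higher (6.67% of all genes) and 1 lower (6.81% of all genes). The median of the 28 was 0.088, and 0.057 with replicate 3 alone. Of the BCL2 family, the inhibitor of apoptosis BCL2 showed 7.71, 7.42 and 7.24 in the pair, against 8.17, 8.13 and 7.73 in siATF5 (difference -0.55, adjusted p in limma 0.0084), and it was -0.28 with replicate 3 alone. MCL1, another inhibitor of apoptosis, showed 11.34, 11.24 and 11.19 in the pair, against 10.62, 10.55 and 10.93 in siATF5, a difference of 0.56, and 0.33 with replicate 3 alone. BBC3 (PUMA) and BID, which promote apoptosis, differed by 0.43 and 0.38, and by 0.23 and 0.09 with replicate 3 alone. The BID arrays of the groups overlapped. Of the 14 measured BCL2 family genes, 3 were called higher (6.67% of all genes) and 1 lower, a share near the 6.81% of all genes. As a check of the cell type, 6 of 8 B-cell markers were above background, and 0 of these 6 were called. Of markers of other cells, 1 of 11 for T and NK cells (LCK), 3 of 10 for myeloid cells (CD14, CD68 and FCGR3A) and 1 of 12 for stromal and epithelial cells (VIM) were above background, and 0 of them were called.

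Across all 22 lists apart from the markers, the median moved closer to 0 with siATF5 replicate 3 alone in 19, and changed sign in 4 (B-cell activation and NF-kB genes, B-cell receptor and surface genes, MYC and ribosome biogenesis genes, and unfolded protein response genes). The replication list was among the 3 in which it did not move closer.

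**Figure D4:**
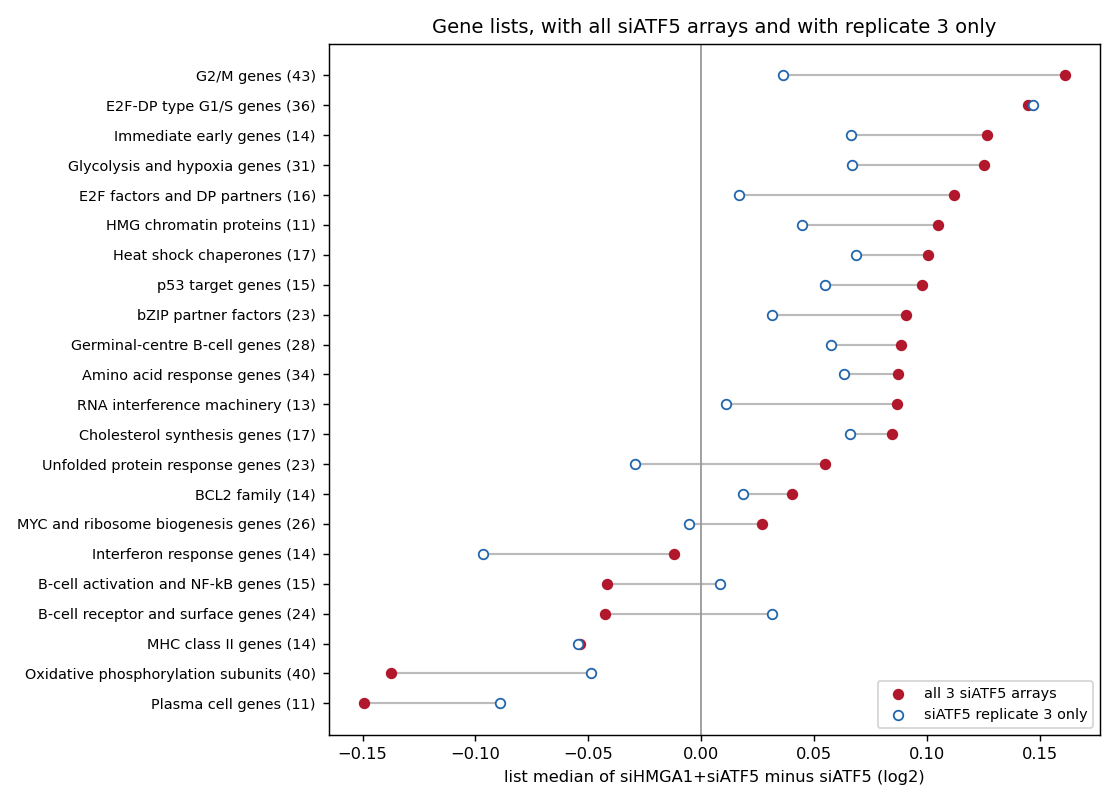
Median log2 difference, siHMGA1+siATF5 minus siATF5, of 22 gene lists (measured genes in brackets), with all 3 siATF5 arrays (filled) and with siATF5 replicate 3 only (open). The replication list stays at 0.145 and 0.147, while the median of the G2/M list goes to 0.036 and that of the oxidative phosphorylation list to -0.049 with replicate 3 only.

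The genes furthest apart in level were otherwise a mixed group. Higher in the pair were ZFAND4 (0.93), a zinc-finger protein, RAD21 (0.82), a subunit of cohesin, and CCAR2 (0.74), a regulator of the deacetylase SIRT1, though against siATF5 replicate 3 alone RAD21 was 0.32 and CCAR2 0.24. ZFAND4 showed 7.92, 7.99 and 8.03 in the pair, against 6.9, 6.87 and 7.38 in siATF5, and was 0.60 higher with replicate 3 alone. AMY1A, PABPC3, PTGR2, RGPD2 and TPM3P9 were also among the 12 with the largest positive differences. PABPC3, RGPD2 and TPM3P9 have close copies in the genome whose transcripts a probe may not tell apart, as has AMY1A.

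Lower in the pair were TP53BP2, a partner of p53 in apoptosis, RTEL1, a helicase of telomeres, and PRIM2, the large subunit of primase. TP53BP2 showed 7.23, 7.29 and 7.24 in the pair, against 8.78, 8.73 and 7.75 in siATF5 (difference -1.17, adjusted p in limma 0.00475). With siATF5 replicate 3 alone it was -0.50, and a second TP53BP2 probe gave 0.06. RTEL1 showed 8.2, 7.9 and 7.78 in the pair, against 9.35, 9.23 and 8.62 in siATF5, a difference of -1.11, and -0.66 with replicate 3 alone. PRIM2 showed 7.59, 7.32 and 7.32 in the pair, against 8.52, 8.75 and 7.73 in siATF5, a difference of -0.92, and -0.32 with replicate 3 alone. In these 3 genes siATF5 replicates 1 and 2 were well above replicate 3, and replicate 3 was nearer to the pair. A control array of the same run of records, siNT4 replicate 1, was raised as well, at 7.93, 8.78 and 8.01. The other siNT4 arrays had at most 7.37, 8.28 and 7.60. With the run as a term the differences were -0.70, -0.67 and -0.66, and TP53BP2 was no longer called. PPID, MAGED4B, SNHG10, CLUAP1, RPLP2, SEC13 and KRTCAP2 completed the 12 lower genes, with differences between -0.87 and -0.79.

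Which changes of the single silencing were absent in the pair was asked last. Against siNT4, siATF5 had 512 called genes (5.94%), of which 240 (2.78%) were higher and 272 (3.15%) lower, while 55.9% of all genes had a negative difference. The split depended on the processing. After quantile normalization 170 of 298 were higher. With probes held to 1 log2 above the array median 49 of 165 were, and without a probe filter 395 of 630. The share of higher genes thus rose as dimmer probes were let in. Whether the higher dim genes reflect the raised background share of siATF5 replicates 1 and 2 was not tested. Of the 512, 364 (71.1%) were called the other way between the pair and siATF5. Since both comparisons use the siATF5 arrays, this share is a description and no test. On arrays that do not enter the first comparison, the pair against siNT4+siNT4, 237 of the 512 (46.3%) had the sign they had in siATF5, and 275 had the opposite sign, while 52.7% of all genes had a negative difference there. The median in the direction of siATF5 was -0.0071 there, against 0.41 in siATF5, and 0 of the 512 were called. The pair had in all 1 called gene against its control (0.0116%), HMGA1, and 360 genes at an unadjusted p under 0.05.

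The called changes of siATF5 included 12 of the 36 replication genes, all lower (3.15% of all genes were). PRIM2, the primase subunit, is not on that list and was called higher in siATF5, by 0.74 (adjusted p in limma 0.0123). In siATF5 against siNT4, MCM4 differed by -0.76, TYMS by -0.76, CCNE1 by -0.73, UHRF1 by -0.65 and RRM2 by -0.59. In the pair against siNT4+siNT4, MCM4 differed by 0.30, TYMS by 0.01, CCNE1 by 0.01, UHRF1 by 0.11 and RRM2 by 0.04. Of the 12 genes, 8 were higher and 4 lower in the pair than in its control (CDT1 at -0.14, SLBP at -0.10, PCNA at -0.10 and MCM10 at -0.05), and 0 were called there. ANLN, an actin-binding protein of cytokinesis, differed by -0.75 in siATF5 against siNT4 and by -0.08 in the pair against siNT4+siNT4, but siATF5 replicate 3 (8.08) was near the pair (8.29, 8.22 and 8.22) while replicates 1 and 2 had 7.28 and 7.36. The count of 512 depended on the same arrays: it was 80 without siATF5 replicate 1, 19 without siATF5 replicate 2, 1747 without siATF5 replicate 3, 293 without siNT4 replicate 2 and 191 without siNT4 replicate 4. It was 2 with siATF5 replicate 3 alone, though 461 of the 512 (90.0%) then had the same sign, with a median of 0.17 in that direction.

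**Figure D5:**
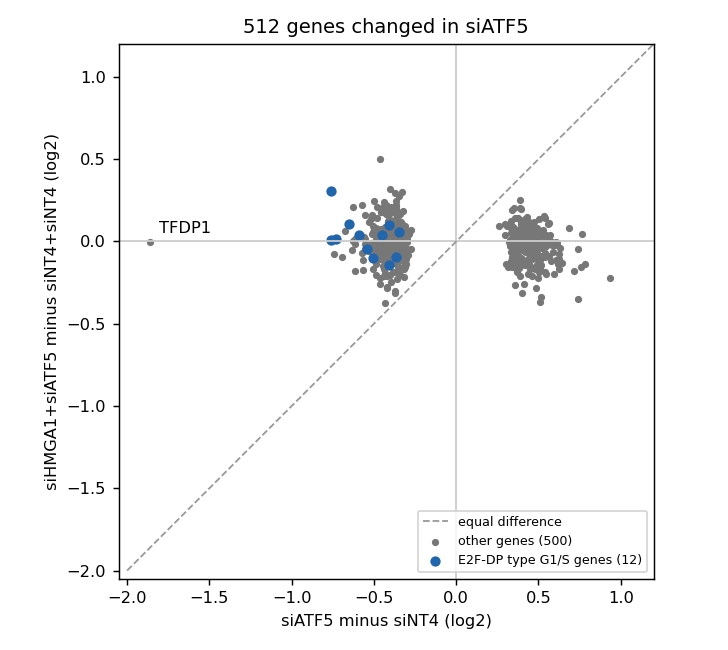
Each point is 1 of the 512 genes called in siATF5 against siNT4; the horizontal axis is that log2 difference and the vertical axis is siHMGA1+siATF5 minus siNT4+siNT4. The points lie along the horizontal zero line and off the dashed line of equal differences, and TFDP1 (-1.86 in siATF5) is at 0 in the pair; 12 replication genes are marked.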

How the data were processed

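The authors' deposited log2 values (45013 probes, Illumina BeadArrays) were used as deposited; the labels name neither a background correction nor a normalization, and differences near the lower limit may be compressed. A second deposited table, with 90 signal and detection columns that no label ties to samples, was not used. A probe counted as above background if at least 3 arrays had it more than 0.5 over their median (14524 probes, 11089 of them with 1 gene symbol in the platform annotation). The probe of highest mean over all arrays stood for a gene (8625 genes).

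Contrasts came from 1 linear model with a mean per group (limma 3.58.1, R 4.3.3, two-sided), fitted to 44 arrays. siTFDP1+siATF5 replicate 3 was left out for its low correlation with the others. The procedure was tested on simulated data. Arrays limit precision by their number.

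The comparison, the 26 gene lists and their tests were chosen with earlier results of these data known, so no list is independent evidence. Named genes were the silencing targets HMGA1, ATF5, TFDP1 and FOXM1; up to 12 genes higher and 12 lower, and up to 10 called in siATF5 and called the other way between the pair and siATF5, by size, with arrays of the groups apart and a higher mean of at least 7.97; and up to 5 members per list by smallest p, or all called members up to 10. The other alternatives were the arrays fitted, probe filter, probe rule, quantile normalization, run, background share, replicate block, array weights and leaving out each array. Sequences are RefSeq's (GRCh38.p14).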

Additional observations from a re-analysis of the deposited data

Results flagged for a closer look

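The difference of differences, in which the pair minus siNT4+siNT4 is set against siATF5 minus siNT4, passed the threshold in limma for 11 genes (0.128%), with 1227 at an unadjusted p under 0.05. It was 1.86 for TFDP1 and -1.14 for HMGA1. Replication genes were 1.07 for MCM4 and 0.76 for UHRF1. Metabolic genes were 0.96 for HMGCS1, 0.89 for PFKFB3 and 0.76 for INSIG1. SIK3, a kinase related to AMPK, was 0.75, with 9.57, 9.43 and 9.50 in the pair and 8.90, 9.03 and 9.09 in siATF5. Dim genes were SMCO1 at -0.76, DLX4 at -0.72 and CCR8 at -0.70. Their pair means of 6.90, 6.94 and 6.95 lay near the array medians (6.95 to 6.98). In all of them siATF5 replicates 1 and 2 read higher than every other array of the groups compared. They had 7.66 and 7.52 in SMCO1, 7.83 and 7.49 in DLX4, and 7.68 and 7.76 in CCR8. Replicate 3 had 7.13, 7.26 and 7.22. These genes may have passed the probe filter through the arrays where they were high, so their calls are no support for a difference. With siATF5 replicate 3 alone, 2 genes passed.

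TP53BP2 had a single high value among the 4 siNT4 arrays, 7.93 in replicate 1, while the other 3 had 7.35, 7.37 and 7.28. Chance gives such a value in about 1 group in 20, but the array stood high in other genes too. Among the genes named above as lower in the pair, siNT4 replicate 1 was the highest siNT4 array in all but HMGA1. It had 8.78 in RTEL1, 8.01 in PRIM2, 7.76 in PPID and 7.84 in SNHG10. In HMGA1 it was the lowest, at 11.27. By the assumed cut of the records this array is in the first run, with siATF5 replicates 1 and 2. The cause was not tested.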

How the results depend on the processing

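HMGA1 and TFDP1 kept their direction and stayed past the threshold under all 18 alternatives, and ATF5 stayed positive and short of it. HMGA1 ran from -1.42 to -1.21, TFDP1 from 1.82 to 2.0 and ATF5 from 0.13 to 0.32. Calls between the pair and siATF5 numbered 8 with all 45 arrays, 2 with the 6 arrays alone, 324 with the first set only, 755 with the probe limit at 1, 98 with the run as a term, 2 with the background share, 2 with siATF5 replicate 3 only and 71 to 2498 leaving out 1 array. The 512 calls of siATF5 became 4 with all 45 arrays, 3 with those groups alone, 103 with the first set, 165 with the probe limit at 1, 298 after quantile normalization, 2 with the background share, 182 with array weights, 2 with siATF5 replicate 3 only and 19 to 1747 leaving out 1 array. The 1 call of the pair against its control became 2 with the probe limit at 1, 4 with the run, 4 with the background share, 5 with array weights and 1 to 3 leaving out 1 array. The 11 differences of differences became 1 with all 45 arrays, 2 with the first set, 6 without a probe filter, 4 after quantile normalization, 70 with the run, 2 with the background share, 67 with array weights, 2 with siATF5 replicate 3 only and 2 to 526 leaving out 1 array. The replication median was 0.219 with the run, and 0.112 to 0.211 leaving out 1 array; the G2/M median was 0.033 with the background share, 0.036 with siATF5 replicate 3 only, and 0.120 to 0.211 leaving out 1 array. The cause of these changes was not tested. FOXM1, at a difference of 0, turned to 0.049 after quantile normalization, 0.075 with the run, 0.080 with the background share and 0.127 with siATF5 replicate 3 only, and ranged over -0.064 to 0.072 leaving out 1 array, and KLF10 turned to -0.018 with siATF5 replicate 3 only. Of 87 other named genes, 0 kept their direction and side of the threshold with siATF5 replicate 3 only, 0 with the background share, 1 with the 6 arrays alone, 4 with all 45 arrays, 5 with the replicate block, 13 without siATF5 replicate 2, 16 with the run, 27 without siATF5 replicate 1, 43 with the first set, and 47 to 86 leaving out another array; 70 to 78 did so with quantile normalization, array weights, no probe filter or the mean of probes, and 79 of 79 with the probe limit at 1.

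Same-numbered arrays of the pair and siATF5 correlated at 0.168, -0.0225 and 0.182 in their deviations, and arrays of unlike number at -0.212 to 0.0761. With 3 arrays per group, these values cannot decide whether the numbers pair the samples. With the replicate block, calls numbered 6 between the pair and siATF5, 1 in siATF5, 78 in the pair against its control and 4 for the difference of differences.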
